A study of Macaca mulatta with 7 samples.

Results

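The peroxiredoxins are the 6 genes PRDX1 to PRDX6, and all 6 were found by symbol among the 18282 genes measured in sperm RNA of the rhesus macaque (Macaca mulatta). Total RNA was sequenced from 3 animals of a group labelled Maltreated and 4 of a group labelled Control, to ask what early life stress leaves in germline RNA of a primate. The Maltreated animals were 5.67 to 5.78 years old and the Control animals 5.72 to 5.92 years old. Age thus largely went with the group, and values given below with age as a covariate separate them poorly. In both groups sperm were purified over a PureSperm 40/80 gradient, a density step meant to remove other cells, and RNA was taken up in TRIzol. The labels used here do not describe the maltreatment itself, and the deposited table gives each library a subject number of its own. A p-value below measures the spread between these libraries.

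Peroxiredoxins are enzymes that reduce hydrogen peroxide and organic peroxides through a reactive cysteine. Most members are then returned to the reduced state by thioredoxin, which is itself reduced by thioredoxin reductase, and PRDX6 uses glutathione instead. Mature sperm hardly transcribe, so their RNA is largely what spermatogenesis left behind, while their membranes and DNA are exposed to peroxide. In mice, loss of Prdx4 or of Prdx6 harms testis or sperm function.

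Reads that lie on a gene's own strand are called sense and those on the other strand antisense. Sense counts came to 30715268, 6160996 and 10690315 in Maltreated 1 to 3, against 9847743, 5528056, 6002772 and 5316383 in Control 1 to 4. All 12 sperm and spermatid markers had reads in all 7 libraries, with summed levels of 45120 to 103100 CPM in Maltreated and 46810 to 62690 CPM in Control sperm. CPM is the sense count of a gene per 1000000 sense reads of its library, scaled by edgeR's TMM factors. Leukocyte markers (12 genes) summed to 24.7, 81.8 and 1021 CPM in Maltreated 1 to 3, against 28.4, 19.4, 53.0 and 748 CPM in Control 1 to 4, so that Maltreated 3 and Control 4 stood apart. Of the 12 genes, 8 were highest in Maltreated 3 and 4 in Control 4. TYROBP, a signalling adaptor of myeloid cells, had 39.9 CPM in Maltreated 3 and 29.1 CPM in Control 4, and at most 0.725 CPM in the other libraries. Not all 12 stood above the other libraries in Control 4, where AIF1 was at 0, ITGB2 at 1.30 CPM and CD14 at 1.86 CPM. CD68, a macrophage protein, stood at 362 CPM in Maltreated 3 and 18.3 CPM in Control 4. CD74, a chaperone of antigen presentation, stood at 246 CPM in Maltreated 3 and 497 CPM in Control 4, most of the sum there. The sum over 9 markers of testis somatic cells was also highest in these libraries, at 266 CPM in Maltreated 3 and 142 CPM in Control 4, with 4 of the 9 at 0 in Maltreated 3 and 2 at 0 in Control 4. Erythroid markers (7 genes) ran from 12.4 to 14.8 CPM in Maltreated and from 9.39 to 29.8 CPM in Control sperm. Markers of earlier germ cells (10 genes) ran from 406 to 614 CPM in Maltreated and from 437 to 482 CPM in Control sperm. Those of epithelium and accessory glands (8 genes) ran from 5.23 to 25.2 CPM in Maltreated and from 15.8 to 289 CPM in Control sperm, and those of the epididymis (6 genes) from 0.101 to 3.85 CPM in Maltreated and from 0 to 17.3 CPM in Control sperm.

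Most of the family's sense signal per kilobase was that of PRDX5. Per kilobase of unique exon, PRDX5 was the highest member in all 7 libraries, and its lowest level (56.9 CPM per kb) was above the highest level of any other member (21.6 CPM per kb, PRDX1 in Maltreated 3). PRDX5 averaged 123.5 ± 89.5 CPM per kb over the 7 libraries (SD, n = 7). PRDX6 followed with 4.63 ± 4.86, PRDX1 with 3.75 ± 7.91, PRDX2 with 3.61 ± 4.12, PRDX4 with 3.60 ± 2.83 and PRDX3 with 0.983 ± 1.29 CPM per kb. Below PRDX5, each neighbour in this order differed from the next by less than the spread between libraries. A read that lies on several exons is counted on each, which can raise the level per kilobase of a gene with short exons. In Maltreated 1, PRDX5 exons 2 and 3, of 38 and 61 bases, had 537 and 637 reads. Exon 4, of 237 bases, had 547. How much this added to the lead of PRDX5 was not tested.

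PRDX5 made up 86.9, 88.9 and 53.3% of the summed CPM per kb of the family in Maltreated 1 to 3, against 79.0, 96.3, 94.9 and 95.9% in Control 1 to 4. The groups overlapped, and the lowest share was that of Maltreated 3. The mean share was 76.4 ± 20.0% in Maltreated (SD, n = 3) and 91.5 ± 8.39% in Control sperm (SD, n = 4). The summed level of the family was 103 ± 15.3 CPM per kb in Maltreated and 168 ± 111 CPM per kb in Control sperm, and the sum without PRDX5 was 24.8 ± 21.8 CPM per kb in Maltreated and 10.4 ± 5.35 CPM per kb in Control sperm. Maltreated 3 had 49.8 CPM per kb outside PRDX5, and Maltreated 1 and 2 had 15.2 and 9.54 CPM per kb.

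None of the peroxiredoxin genes passed the test between Maltreated and Control sperm. With edgeR's quasi-likelihood test and Benjamini-Hochberg adjustment over all genes tested, 0 of the 5 tested members and 0 of 10719 genes were called (0%), and the smallest adjusted p over all genes was 0.999. DESeq2's Wald test called 3 of 10424 genes and limma-voom 0, none of them a member. PRDX3 did not pass the filter on low counts. The CPM of the 2 groups overlapped for all 6 members, where 3.59% of all tested genes had groups that did not overlap. Unadjusted p-values lay under 0.05 for 1 member, PRDX1, and for 1.78% of all tested genes. A log2 fold change above 0 (higher in Maltreated sperm) was found for 4 of the 5 tested members and for 48.7% of all tested genes. In bulk RNA of this kind, fewer cells of a type and less RNA per cell cannot be told apart.

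**Figure D1:**
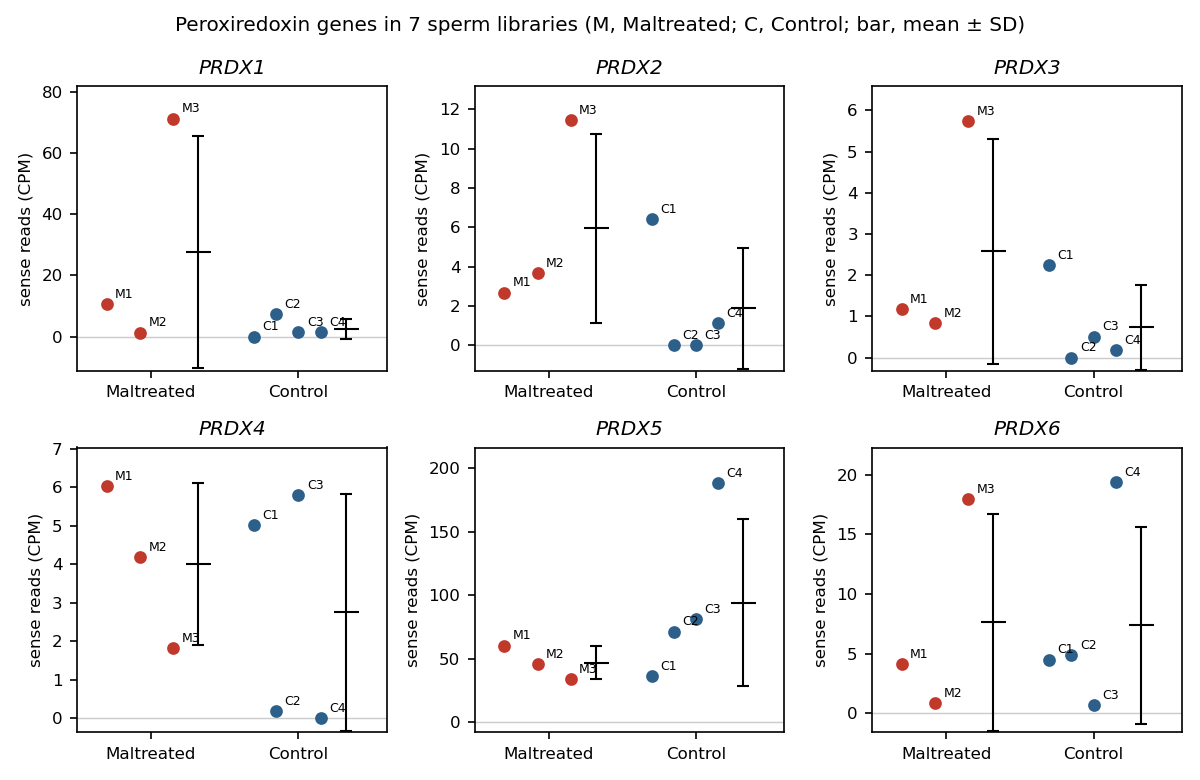
Sense reads of the 6 peroxiredoxin genes in CPM (linear vertical axes), 1 panel per gene, with each point a library (M, Maltreated, left; C, Control, right) and bars for the group mean ± SD (n = 3 and 4). The groups overlap in every panel, PRDX5 reaches 188 CPM in Control 4, and Maltreated 3 is the highest library for PRDX1, PRDX2 and PRDX3.

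PRDX5 is a peroxiredoxin of mitochondria, peroxisomes and cytosol, and reduces organic peroxides and peroxynitrite as well as hydrogen peroxide. The files place it on the plus strand of chromosome 11, from 9262910 to 9267556, in 4 exons of 597 bases in all. The sources used here name no genome build. It had 1794, 273 and 391 sense reads in Maltreated 1 to 3, against 338, 393, 474 and 1010 in Control 1 to 4. In CPM this was 60.1, 45.7 and 33.9 in Maltreated 1 to 3, against 36.1, 71.2, 81.0 and 188 in Control 1 to 4. Control 4 was the highest library and Maltreated 3 the lowest, and Control 1 lay within the Maltreated range.

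The mean of PRDX5 was 46.6 ± 13.1 CPM in Maltreated (SD, n = 3) and 94.1 ± 65.6 CPM in Control sperm (SD, n = 4). The log2 fold change was -1.01 ± 0.54 (SE), with an unadjusted p of 0.0897 and an adjusted p of 0.999 in edgeR's quasi-likelihood test. It rested largely on Control 4. Without that library it was -0.44, and without Control 4 and Maltreated 3 together, the libraries with the most leukocyte RNA, it was -0.26. The part of other cells in this difference was not tested. Per kilobase, PRDX5 stood above 95.5 to 99.3% of all genes in each library.

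The 4 exons of PRDX5 were not read alike. Exons 2 to 4 had 85 to 637 reads each in Maltreated and 75 to 371 in Control libraries, although exon 2 has 38 bases and exon 4 has 237. Exon 1, of 261 bases, had 73, 0 and 40 reads in Maltreated 1 to 3, against 34, 7, 1 and 67 in Control 1 to 4. It was thus the exon with the fewest reads in all 7 libraries. As a share of the reads on PRDX5 exons this was 4.07% in Maltreated 1 (95% interval 3.203 to 5.09, exact binomial), 0% in Maltreated 2 (up to 1.34) and 10.2% in Maltreated 3 (7.41 to 13.7).

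In Control sperm, exon 1 held 10.1% of the PRDX5 reads in Control 1 (7.07 to 13.8), 1.78% in Control 2 (0.719 to 3.64), 0.211% in Control 3 (0.005 to 1.17) and 6.63% in Control 4 (5.18 to 8.35). The groups overlapped, and within each group some of these intervals lay apart. Reads covered 100, 47.6 and 92.3% of the PRDX5 exon bases in Maltreated 1 to 3, against 94.6, 65.8, 57.1 and 100% in Control 1 to 4. The libraries with the lowest coverage, Maltreated 2, Control 3 and Control 2, were those with the smallest share on exon 1. The 2 measures are not independent, because exon 1 holds 261 of the 597 exon bases. The intervals treat every count as independent and may be too narrow. These reads carry no molecular identifiers and may repeat a molecule, and a read on several exons is counted on each. Whether the libraries differed by more than counting error thus cannot be told from them.

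**Figure D2:**
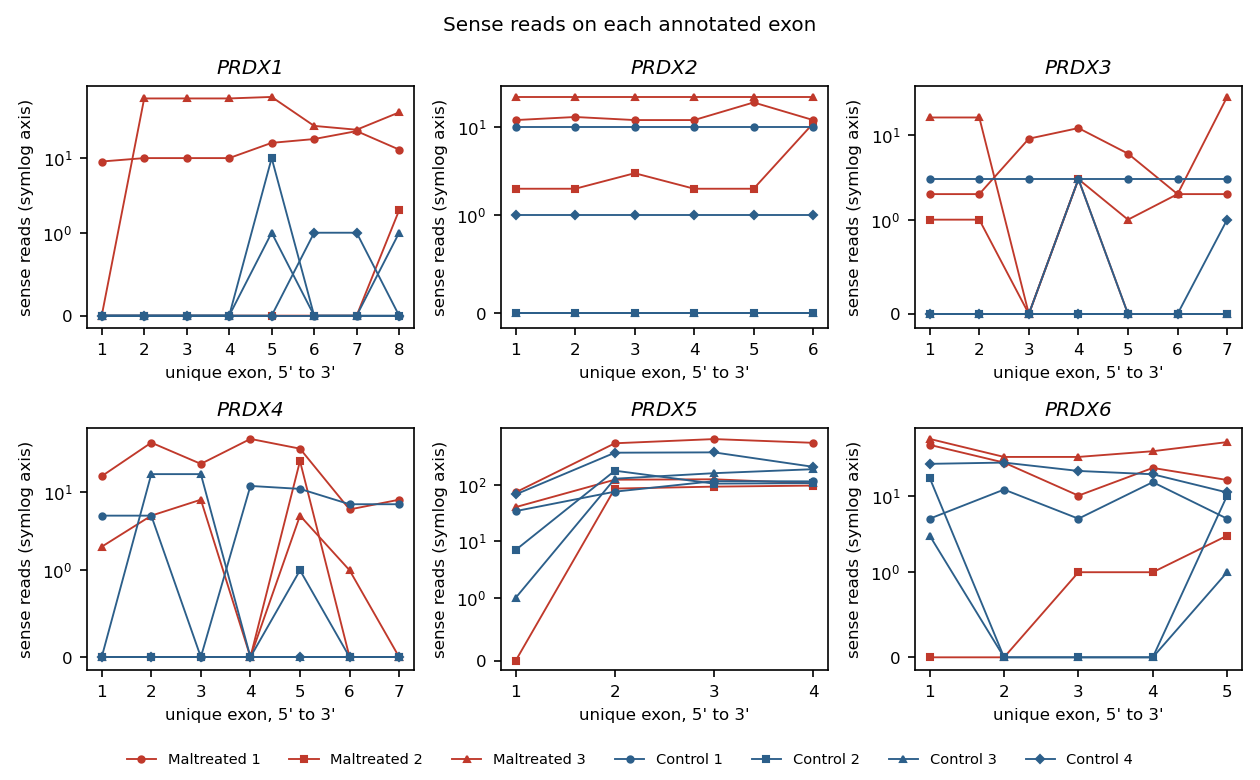
Sense reads on each unique exon of the 6 genes, from the 5′ to the 3′ end, on a symmetric log axis (linear below 1), 1 line per library (red, Maltreated; blue, Control). PRDX2 runs flat in Maltreated 3, Control 1 and Control 4 at 22, 10 and 1 reads per exon, whereas PRDX5 has few reads on exon 1 and 75 to 637 on each other exon.

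PRDX1, PRDX2 and PRDX6 are the mainly cytosolic members. PRDX1 is a widely expressed peroxidase that also relays peroxide signals. Its locus is on the minus strand of chromosome 1, from 44812151 to 44820333, between TESK2 and AKR1A1. The files list 20 exon entries for it, of which 8 are different exons and 3 of those overlap, so its deposited count adds the same reads up several times. Those counts were 319, 8 and 821 in Maltreated 1 to 3, against 0, 40, 8 and 8 in Control 1 to 4. Counted once per unique exon they were 109, 2 and 347 in Maltreated 1 to 3, against 0, 10, 2 and 2 in Control 1 to 4. This count still repeats the reads shared by the 3 overlapping exons, each with 63 reads in Maltreated 3 and 10 in Maltreated 1. The length used per kilobase repeats their shared bases too.

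By the deposited counts PRDX1 stood at 10.7, 1.34 and 71.3 CPM in Maltreated 1 to 3, against 0, 7.25, 1.37 and 1.49 CPM in Control 1 to 4. Maltreated 3 was the highest, Maltreated 1 was second, and Maltreated 2 lay below 3 Control libraries. In Control 1, where PRDX1 was at 0, the floor of 3 counts is 0.320 CPM. As an upper bound this is too low for PRDX1, because its deposited count repeats reads. In Control 3, 2 reads on unique exons made a deposited count of 8. The means were 27.8 ± 37.96 CPM in Maltreated (SD, n = 3) and 2.53 ± 3.22 CPM in Control sperm (SD, n = 4), each with an SD above the mean. On unique exons the mean over the 7 libraries was 5.23 CPM in place of 13.3, and the log2 fold change 4.18.

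On the deposited counts the log2 fold change of PRDX1 was 3.47 ± 1.51 (SE), with an unadjusted p of 0.0432 and an adjusted p of 0.999 in edgeR's quasi-likelihood test. Without Maltreated 3 it was 1.25 with an unadjusted p of 0.499 in edgeR's quasi-likelihood test, and without Maltreated 3 and Control 4 together it was 1.08. The exon reads of the other libraries were few or uneven. Control 2 had all its 10 reads on a single exon, and Maltreated 2 had 2 reads, both on the 3′ exon. Maltreated 3 had 0 reads on the most 5′ exon and 24 to 66 on each of the others. In Maltreated 1 the exons had 9 to 23 reads, and 37 of its 109 reads lay above the level of the neighbouring genes described with PRDX2. The part of the leukocyte RNA of Maltreated 3 in the PRDX1 value was not tested.

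PRDX2 is known best as a major peroxidase of red blood cells. It lies on the minus strand of chromosome 19, from 12507768 to 12513220, between JUNB and RNASEH2A. It had 80, 22 and 132 sense reads in Maltreated 1 to 3, against 60, 0, 0 and 6 in Control 1 to 4. In CPM these were 2.68, 3.68 and 11.5 in Maltreated 1 to 3, against 6.402, 0, 0 and 1.12 in Control 1 to 4. Control 1 lay above Maltreated 1 and 2, and the other Control libraries below all Maltreated libraries. In Control 2 and Control 3, where PRDX2 was at 0, the floor of 3 counts is 0.544 and 0.513 CPM. The means were 5.94 ± 4.81 CPM in Maltreated (SD, n = 3) and 1.88 ± 3.06 CPM in Control sperm (SD, n = 4), with a log2 fold change of 1.63 ± 1.63 (SE) and an adjusted p of 0.999 in edgeR's quasi-likelihood test. It was 3.96 without Control 1, 0.72 without Maltreated 3, 6.54 with age as a covariate, 4.59 with the replicate number as a block and 3.45 with limma-voom.

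These PRDX2 reads did not follow the gene. In Maltreated 3 each of the 6 exons had 22 reads, in Control 1 each had 10 and in Control 4 each had 1, for exons of 111 to 347 bases. In Maltreated 1 the exons had 12 to 19 reads, and in Maltreated 2 they had 2 or 3 except for 11 on the 3′ exon. The same level ran on over the neighbouring genes on the same strand of the genome, whether or not that was their own strand. In Maltreated 3, no exon had fewer than 22 reads over 243.9 kb, a stretch with 139 exons of 14 other genes, of which 68 had exactly 22.

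In Control 1 the count was 10 or more over 242.3 kb with 138 exons of 14 other genes, and 104 of those exons had exactly 10. In Control 4 it was 1 or more over 499.9 kb with 232 exons of 22 other genes, and 92 of these had exactly 1. Maltreated 1 and 2 had such stretches of 180.5 and 220.2 kb around PRDX2, at 12 or more and 2 or more reads per exon. Exactly 12 reads were found on 16 of 101 exons of other genes in Maltreated 1, and exactly 2 on 54 of 121 in Maltreated 2. The reads above the neighbours were counted by taking from each exon the lower of the counts on the nearest exons of other genes on either side. For PRDX2 this left 16 of 300 sense reads (5.33%), 6 in Maltreated 1, 10 in Maltreated 2 and 0 in the other libraries. Over all genes it left 95.4 to 96.9% of the sense reads of each library.

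**Figure D3:**
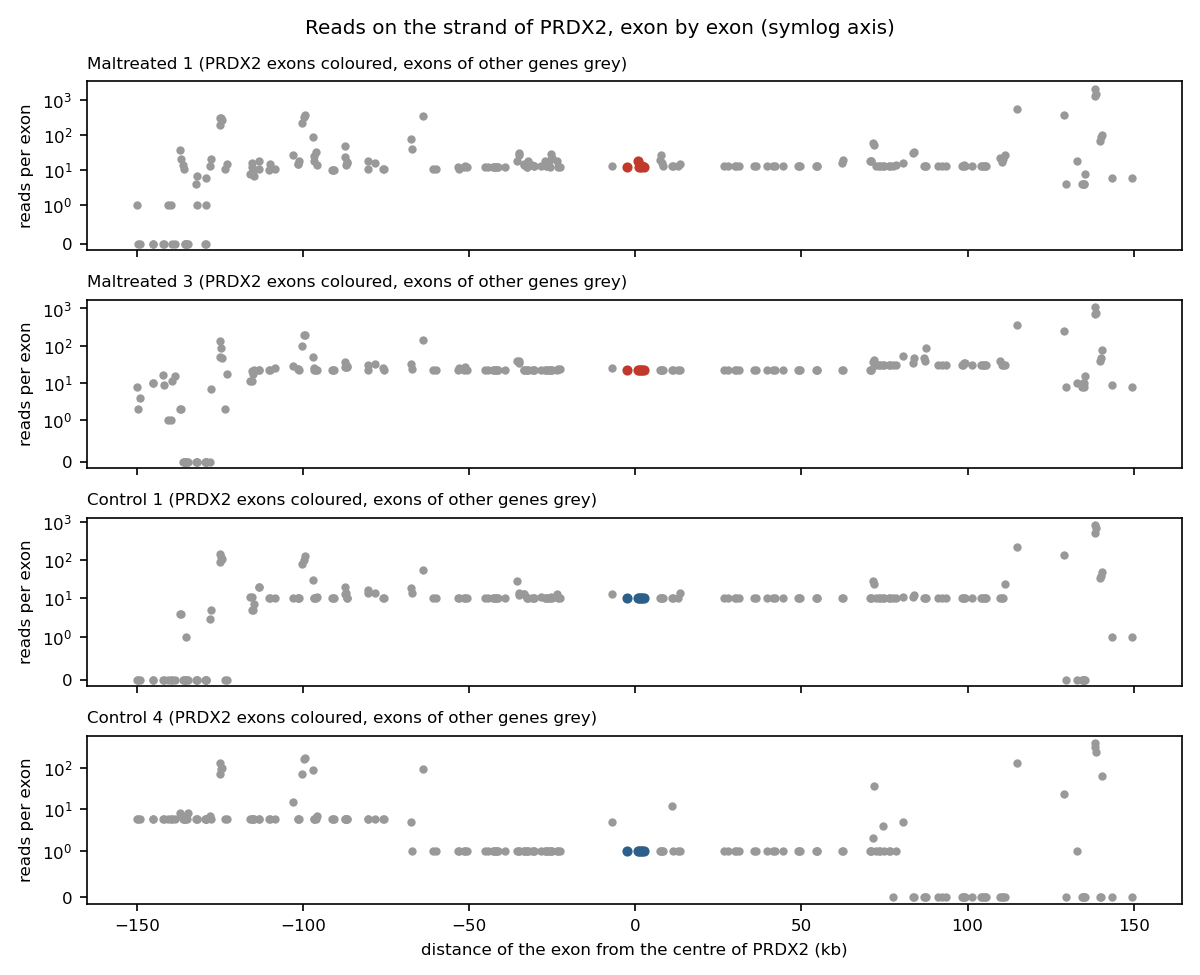
Reads per exon on the strand of PRDX2 within 150 kb of its centre, on symmetric log axes (linear below 1), for Maltreated 1, Maltreated 3, Control 1 and Control 4, with exons of PRDX2 coloured and those of other genes in grey. The PRDX2 exons sit on a floor shared with the genes around them, at 22 reads in Maltreated 3, 10 in Control 1 and 1 in Control 4.

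The members differed in this measure. It left 4649 of 4673 sense reads of PRDX5 (99.5%) and all reads of PRDX4 and PRDX6. It left 400 of 472 unique-exon reads of PRDX1 (84.7%) and 110 of 131 of PRDX3 (84.0%). PRDX2 had the lowest share of the 6, and its CPM cannot be told apart from the level of its surroundings in Maltreated 3, Control 1 and Control 4. What made these even stretches was not tested.

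PRDX6 reduces phospholipid peroxides and also has phospholipase activity. It lies on the minus strand of chromosome 1, from 193555047 to 193566393, in 5 exons. It had 122, 5 and 207 sense reads in Maltreated 1 to 3, against 42, 27, 4 and 104 in Control 1 to 4. In CPM these were 4.09, 0.836 and 17.97 in Maltreated 1 to 3, against 4.48, 4.89, 0.683 and 19.4 in Control 1 to 4. Each group had 1 library near 18 CPM or above, Maltreated 3 and Control 4, which are also the libraries with the most leukocyte RNA. Whether that RNA contributed was not tested.

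The means of PRDX6 were 7.63 ± 9.10 CPM in Maltreated (SD, n = 3) and 7.36 ± 8.23 CPM in Control sperm (SD, n = 4). The log2 fold change was 0.06 ± 1.25 (SE), with an adjusted p of 0.999 in edgeR's quasi-likelihood test. Its sign depended on single libraries. It was -1.56 without Maltreated 3, 1.17 without Control 4 and -0.44 without both. All 5 exons had reads in Maltreated 1, Maltreated 3, Control 1 and Control 4, with 10 to 55 reads per exon in those Maltreated and 5 to 27 in those Control libraries.

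PRDX3 is the mitochondrial peroxidase that works with TXN2 and TXNRD2. It lies on the minus strand of chromosome 10, from 114935584 to 114946501, in 7 exons. It had 35, 5 and 66 sense reads in Maltreated 1 to 3, against 21, 0, 3 and 1 in Control 1 to 4. In CPM these were 1.17, 0.836 and 5.73 in Maltreated 1 to 3, against 2.24, 0, 0.513 and 0.186 in Control 1 to 4. The groups overlapped through Control 1 alone, which lay above Maltreated 1 and 2.

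The 21 PRDX3 reads of Control 1 were 3 on each of the 7 exons, and the nearest exon of SFXN4 on one side and of GRK5 on the other also had 3 reads on that strand. Counted above the lower neighbour, Control 1 had 0 reads of PRDX3, and the groups then spanned 0.836 to 5.73 CPM in Maltreated and 0 to 0.513 CPM in Control sperm, without overlap. The nearest libraries were Maltreated 2 with 5 reads and Control 3 with 3. By the same count 3.59% of the genes with at least 15 such reads had groups that did not overlap. This count was chosen after the data had been seen, and the gene did not pass the filter for the test. Maltreated 1 kept all its 35 reads above the lower neighbour, because the exon on one side had 0. Yet around PRDX3 it too had 2 or more reads per exon over 501.9 kb, with exactly 2 on 21 of 56 exons of other genes. With no filter on low counts the log2 fold change of the deposited counts was 1.75 ± 1.84 (SE) in edgeR's quasi-likelihood test.

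PRDX4 is the member of the endoplasmic reticulum, where it passes oxidation on to protein disulfide isomerases. It lies on the plus strand of chromosome X, from 23012458 to 23032095, in 7 exons. It had 180, 25 and 21 sense reads in Maltreated 1 to 3, against 47, 1, 34 and 0 in Control 1 to 4. In CPM these were 6.03, 4.18 and 1.82 in Maltreated 1 to 3, against 5.02, 0.181, 5.81 and 0 in Control 1 to 4. High and low libraries occurred in both groups, and PRDX4 was lowest in Maltreated 3 and Control 4 within their groups.

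The means of PRDX4 were 4.01 ± 2.11 CPM in Maltreated (SD, n = 3) and 2.75 ± 3.09 CPM in Control sperm (SD, n = 4), with a log2 fold change of 0.54 ± 1.49 (SE) and an adjusted p of 0.999 in edgeR's quasi-likelihood test. It was 0.10 without Maltreated 1, 0.11 without Control 4, 0.15 without Control 2, 0.87 without Maltreated 3, 1.00 without Control 1 and 1.18 without Control 3, -0.69 with age as a covariate and 1.57 with limma-voom. In several libraries the reads lay on few exons. All 25 reads of Maltreated 2 were on the fifth exon, of 130 bases, and the 34 reads of Control 3 were 17 on each of exons 2 and 3. In Maltreated 1 every exon had reads, from 6 to 48.

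**Figure D4:**
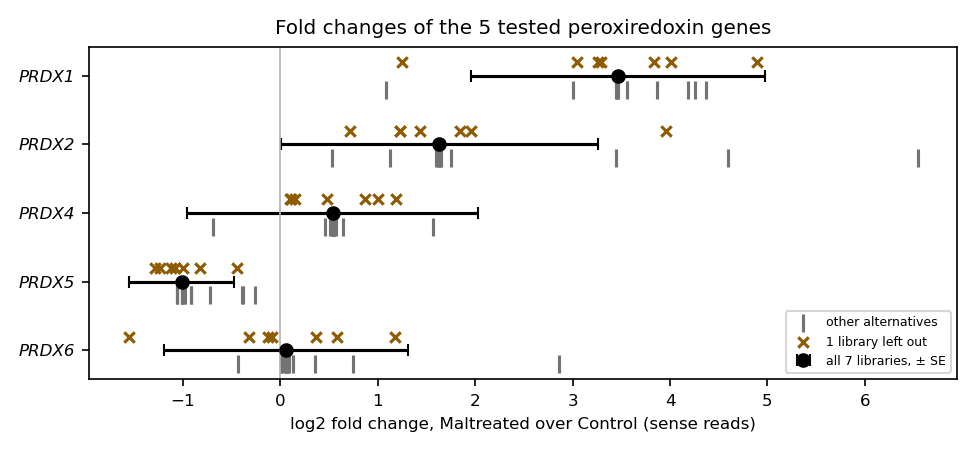
Log2 fold changes of Maltreated over Control sperm for the 5 tested members (sense reads), with black points for all 7 libraries ± SE, crosses for fits without 1 library and ticks for the other alternatives. PRDX1 lies at 1.25 without Maltreated 3, PRDX5 at -0.44 without Control 4, and PRDX6 lies on both sides of 0.

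Antisense reads made up 3.36, 14.0 and 12.5% of the reads on the family in Maltreated 1 to 3, against 16.3, 7.24, 0 and 5.29% in Control 1 to 4. Over all genes the share was 6.15, 9.69 and 8.45% in Maltreated 1 to 3, against 6.85, 10.4, 8.86 and 12.1% in Control 1 to 4. The groups overlapped in both measures. Over the 7 libraries together, antisense reads were 28.4% of the reads on PRDX3, 21.2% on PRDX1, 14.0% on PRDX2, 7.09% on PRDX6, 2.22% on PRDX4 and 2.18% on PRDX5. For PRDX1, PRDX2, PRDX3, PRDX4 and PRDX6 a single library carried most of these reads, and shares per library ran from 0 to 100%. Maltreated 3 had 216 of the 324 antisense reads of PRDX1, Control 2 had 35 of the 52 of PRDX3, and Control 1 had 36 of the 49 of PRDX2 and 27 of the 39 of PRDX6. Without the library with most antisense reads, the share was 22.0% for PRDX1, 11.5% for PRDX3, 5.14% for PRDX2 and 2.50% for PRDX6. All these shares use the deposited counts, which repeat exons of PRDX1 on both strands. On unique exons PRDX1 had 114 antisense and 472 sense reads.

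Of the members, PRDX1 and PRDX5 passed the filter for antisense reads, and 0 of these 2 and 0 of 4382 genes (0%) were called by edgeR's quasi-likelihood test, with 2.51% of the genes under an unadjusted p of 0.05. DESeq2's Wald test called 16 of 3718 antisense genes and limma-voom 0, none of them a member. PRDX1 had 32, 20 and 216 antisense reads in Maltreated 1 to 3, against 28, 0, 0 and 28 in Control 1 to 4. These deposited counts add up repeated exon entries. On unique exons they were 20, 8 and 60 in Maltreated 1 to 3, against 10, 0, 0 and 16 in Control 1 to 4. For the deposited counts the log2 fold change was 2.40 ± 1.81 (SE), with an adjusted p of 0.998 in edgeR's quasi-likelihood test. It was 0.39 without Maltreated 3. It was 8.71 with age as a covariate, with an unadjusted p of 0.00638 and an adjusted p of 0.999 in edgeR's quasi-likelihood test. In that fit 3.15% of the genes had an unadjusted p under 0.05. With the replicate number as a block the log2 fold change was 5.30. On unique exons PRDX1 did not pass the filter for antisense reads, so these values rest on the repeated exon entries. PRDX5 had 33, 15 and 14 antisense reads in Maltreated 1 to 3, against 8, 1, 0 and 33 in Control 1 to 4. Its log2 fold change was 0.34 ± 1.67 (SE), with an adjusted p of 0.998 in edgeR's quasi-likelihood test. With age it was 5.93, and with the block 2.90. Most antisense reads of PRDX5 lay on exon 4, at the 3′ end.

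The antisense reads of the other members came in few libraries and, as with the sense reads of PRDX2, often at 1 level. In Control 2 each of the 7 exons of PRDX3 had 5 antisense reads, and 38 of 47 exons of 4 other genes in the same 161.0 kb had exactly 5. In Maltreated 2 each PRDX3 exon had 2. In Control 1 each exon of PRDX2 had 6 antisense reads, and 3 exons of PRDX6 had 9 each. Above the lower neighbour, 0 of 49 antisense reads of PRDX2, 12 of 39 of PRDX6, 38 of 52 of PRDX3, all 7 of PRDX4, all 104 of PRDX5 and 74 of 114 unique-exon reads of PRDX1 were left. The even reads of PRDX3 in Control 2 all remained, because the exon on one side had 0. This stood beside 62.3 to 71.4% of all antisense reads of each library.

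For each tested member the genes whose levels followed it most closely were found by the root mean square difference of centred log2 CPM over the 7 libraries, where 0 means the same pattern. They were picked from all tested genes for a shared pattern, so a peak in the same library follows from the choice. For PRDX5 these were CLASRP and ENKD1, both at 0.282. CLASRP, a splicing regulator, had 8.71, 9.37 and 8.25 CPM in Maltreated 1 to 3, against 9.07, 12.3, 16.1 and 29.6 CPM in Control 1 to 4. ENKD1 had 4.46, 5.35 and 4.69 CPM in Maltreated 1 to 3, against 3.63, 7.25, 6.49 and 19.4 CPM in Control 1 to 4. Both were highest in Control 4, as was PRDX5.

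PRDX6 was followed most closely by MBNL1, an RNA-binding splicing factor (0.328), and RNF187 (0.414). MBNL1 had 5.19, 0.669 and 20.4 CPM in Maltreated 1 to 3, against 3.31, 4.53, 0.342 and 16.02 CPM in Control 1 to 4, high in Maltreated 3 and Control 4. The nearest gene to PRDX2 was RTBDN (0.112), which lies within the even stretches around PRDX2 on chromosome 19, and the next was SUB1 (0.701). For PRDX1 the nearest were TRIM25 (0.886) and OSBPL3 (0.963), and for PRDX4 TRIM10 (0.452).

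The peroxiredoxin pathway was covered by a list of 52 other genes, of which 51 are in the files and 30 passed the filter. None was called by edgeR's quasi-likelihood test, DESeq2's Wald test or limma-voom, and 0 had in edgeR an unadjusted p under 0.05. Of the 30, 16 had a log2 fold change above 0 and 14 below. Their median was 0.04, where the median of all tested genes was -0.02. The deposited counts repeat exons of some genes. On unique exons the mean CPM over the 7 libraries was 808 in place of 1652 for GPX4, 80.5 in place of 160.6 for TXNRD3, 33.7 in place of 57.9 for SESN3 and 20.4 in place of 51.2 for SOD2. The values that follow are of the deposited counts unless given per kilobase.

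Thioredoxin reductases pass electrons from NADPH to thioredoxin. TXNRD1, the cytosolic one, was the only pathway gene of the 30 whose groups did not overlap, as they did not for 3.59% of all tested genes. It had 222, 210 and 227 CPM in Maltreated 1 to 3, against 200, 160, 126 and 65.6 CPM in Control 1 to 4. Its means were 220 ± 8.79 CPM in Maltreated (SD, n = 3) and 138 ± 56.8 CPM in Control sperm (SD, n = 4), with a log2 fold change of 0.67 ± 0.36 (SE), an unadjusted p of 0.0906 and an adjusted p of 0.999 in edgeR's quasi-likelihood test. Without Control 4 it was 0.42. TXNRD1 was even across the Maltreated libraries and lowest in Control 4, the library where PRDX5 was highest.

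TXNRD2, the mitochondrial reductase, had 7.07, 6.86 and 4.86 CPM in Maltreated 1 to 3, against 0.960, 1.09, 4.95 and 0 CPM in Control 1 to 4, with a log2 fold change of 1.83 ± 1.34 (SE). It was 3.16 without Control 3 and 0.69 with age as a covariate. TXNRD3, a reductase known from the testis of mice, had 85.2, 115 and 179.5 CPM in Maltreated 1 to 3, against 112, 93.2, 153 and 387 CPM in Control 1 to 4, with a log2 fold change of -0.56 ± 0.51 (SE). For TXNRD3 it was 0.07 without Control 4, -0.33 without Maltreated 1 and -0.90 without Maltreated 3. TXNIP, which binds thioredoxin and blocks it, had 1.01, 4.01 and 5.38 CPM in Maltreated 1 to 3, against 1.28, 0.544, 0.854 and 29.8 CPM in Control 1 to 4, with a log2 fold change of -1.23 ± 1.49 (SE), and -0.76 without Maltreated 1. None of these passed the test, and for TXNRD2, TXNRD3 and TXNIP the groups overlapped.

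Among the thioredoxins, 3 of 4 tested genes had a log2 fold change above 0. TXN2, the mitochondrial thioredoxin, had 14.9, 26.1 and 9.20 CPM in Maltreated 1 to 3, against 7.26, 19.6, 13.8 and 10.1 CPM in Control 1 to 4. TXN, the cytosolic thioredoxin, had 26.9 CPM in Maltreated 3 and 0.101 and 0.335 in Maltreated 1 and 2, against 7.86 CPM in Control 3 and 0, 0 and 0.186 in Control 1, 2 and 4. TXN was thus near 0 in 5 of 7 libraries and did not pass the filter. The thioredoxins known from sperm and spermatids, TXNDC8 and NME8, had means of 5.65 ± 4.61 and 7.80 ± 2.49 CPM in Maltreated (SD, n = 3), against 3.49 ± 5.14 and 9.08 ± 6.47 CPM in Control sperm (SD, n = 4). TXNL1 had 3.496 ± 3.53 CPM in Maltreated and 3.42 ± 2.82 CPM in Control sperm, and TXNDC17 at most 0.683 CPM in any library.

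SRXN1, the sulfiredoxin that repairs overoxidised peroxiredoxins, had 0.0670, 4.68 and 1.65 CPM in Maltreated 1 to 3, against 0.107, 0.181, 1.03 and 0.186 CPM in Control 1 to 4, and did not pass the filter. The sestrins SESN1 and SESN3, listed with SRXN1, had means of 11.4 ± 4.48 and 69.8 ± 19.9 CPM in Maltreated (SD, n = 3), against 9.16 ± 1.07 and 49.0 ± 32.95 CPM in Control sperm (SD, n = 4). Both sestrins had a log2 fold change above 0. Of the partners of PRDX4 in the endoplasmic reticulum, 1 of 6 tested lay above 0. ERO1LB, an oxidase of protein disulfide isomerases, averaged 334 ± 135 CPM in Maltreated and 373 ± 165 CPM in Control sperm, PDIA3 72.6 ± 14.7 CPM in Maltreated and 85.5 ± 6.83 CPM in Control sperm, and PDIA6 41.1 ± 20.6 CPM in Maltreated and 61.6 ± 65.5 CPM in Control sperm. Per kilobase, PRDX4 had a mean level of 3.60 CPM per kb over the 7 libraries, against 73.5 for ERO1LB, 28.4 for PDIA3 and 22.9 CPM per kb for PDIA6.

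Among the other enzymes that remove peroxide or superoxide, 3 of 4 tested lay above 0. GPX4, a lipid peroxidase that in rodents is also a structural protein of the sperm midpiece, exceeded every peroxiredoxin. It had 4325, 942 and 1201 CPM in Maltreated 1 to 3, against 1301, 893, 1403 and 1499 CPM in Control 1 to 4. PRDX5 had a mean of 123.5 CPM per kb over the 7 libraries, against 566 ± 416 CPM per kb for GPX4 (SD, n = 7). SOD2, the mitochondrial superoxide dismutase, had 14.0, 5.35 and 147.5 CPM in Maltreated 1 to 3, against 12.5, 18.5, 44.2 and 116 CPM in Control 1 to 4, highest in the libraries with the most leukocyte RNA. SOD1, the cytosolic form, averaged 4.17 ± 1.49 CPM in Maltreated and 11.5 ± 14.7 CPM in Control sperm.

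In the glutathione group, 4 of 7 tested genes lay above 0. GLRX3, GCLM and GLRX2 had means of 26.8 ± 7.01, 52.2 ± 39.7 and 9.69 ± 7.87 CPM in Maltreated (SD, n = 3), against 25.9 ± 12.6, 55.2 ± 14.9 and 5.64 ± 3.16 CPM in Control sperm (SD, n = 4). Of the 2 regulators, 1 lay above 0 and 1 below. NFE2L2, the activator of many antioxidant genes, had 10.9 ± 4.31 CPM in Maltreated and 8.86 ± 8.02 CPM in Control sperm, and its inhibitor KEAP1 3.19 ± 0.973 CPM in Maltreated and 3.46 ± 1.58 CPM in Control sperm. Of the enzymes that make superoxide or peroxide, CYBB, the oxidase of phagocytes, had 36.02 CPM in Maltreated 3 and at most 1.49 CPM in any other library. NOX3 and NOX4 averaged 0.156 ± 0.271 and 1.27 ± 1.92 CPM in Maltreated, against 2.98 ± 5.48 and 5.01 ± 7.26 CPM in Control sperm. For each gene named here from the glutathione group, the regulators and the oxidases, the difference of the means was smaller than the SD of at least 1 group.

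**Figure D5:**
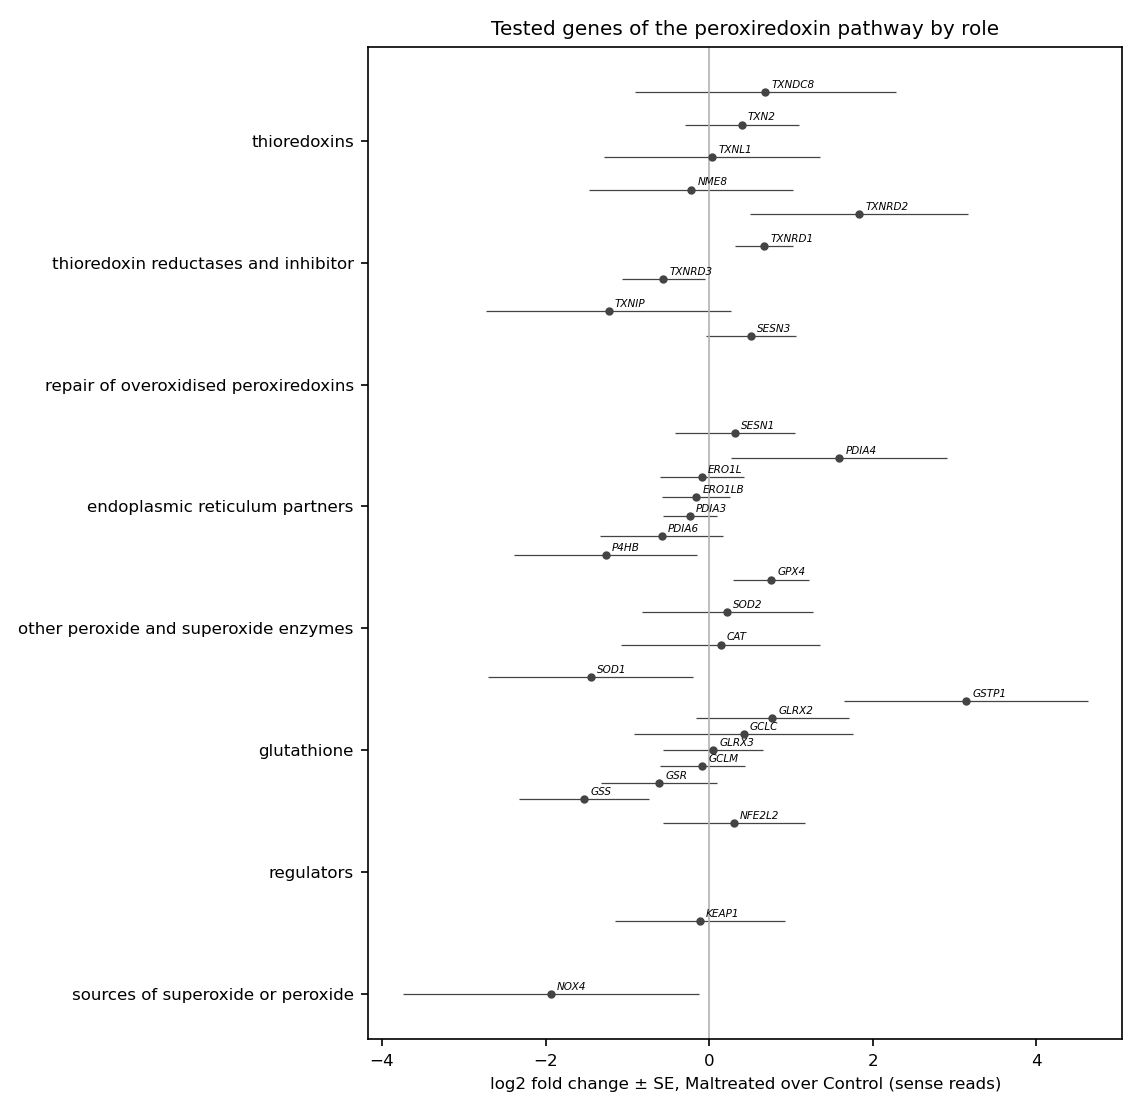
Log2 fold change ± SE of Maltreated over Control sperm (sense reads) for the 30 tested pathway genes, grouped by role. Points lie on both sides of 0 (16 above, 14 below), and TXNRD1 lies at 0.67 ± 0.36.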

How the data were processed

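A deposited table gives, per the file headers, 1 count of reads and 1 covered fraction of exon bases for each gene, in sense and antisense reads of 7 libraries. Further deposited files give, per exon and strand, the count of reads, the number of covered bases, the exon length and the covered fraction. Covered bases and lengths were used as deposited. The deposited counts are whole numbers that were not normalised, with a different sum in each library. The tools named in the submitters' processing notes are bedtools, featureCounts and STAR, without versions, and the sources used here name no genome build. The gene counts equalled the sums over exon entries for all 18282 genes in every library, so a read on several exons is counted on each. Of 233690 exon entries, 43085 repeat an exon of the same gene. For 2 genes the files list both strands, and these were left out.

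Sense counts, and likewise antisense counts, went through edgeR 4.0.16 under R 4.3.3 (TMM, filterByExpr with a minimum count of 10 and total of 15, quasi-likelihood F test on the group, 3 Maltreated against 4 Control), with Benjamini-Hochberg adjustment over all tested genes and a threshold of 0.05. The edgeR steps were run on simulated counts. The spread of those counts was set beforehand and not taken from these libraries, so the run gives no measure of power here. CPM per kb uses each unique exon once, and likeness uses log2 CPM with a prior count of 2. An interval is a 95% exact binomial one, and the floor of a count of 0 is 3 counts. Alternatives were other size factors, DESeq2 1.42.0, limma 3.58.1 voom with sample weights, other filters, age, the replicate number, libraries left out, unique exons and both strands. Those on 1 exon per gene and on counts above the lower flank were added after seeing the data.

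The members and the pathway and marker lists were chosen with earlier results of these data known. Named are the 6 members, all thioredoxins and reductases, SRXN1, the 3 genes with the highest mean level per kilobase of every other pathway group, and the 2 genes closest to each tested member. For PRDX4, 1 of these 2 is not reported here. TXNDC2, also on the list, is not analysed here. Depth ran from 5316383 to 30715268 sense reads, and 1 read was worth 0.0335 CPM in Maltreated 1 and up to 0.186 CPM elsewhere. No sequences are shown. Library strandedness was not checked against a kit, and the sense and antisense columns were taken as deposited.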

Additional observations from a re-analysis of the deposited data

Results flagged for a closer look

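In 16 of 53 sets of 4 Control values, 1 library lay far from the other 3 (by Dixon's gap test at its 95% critical value). For independent values from a normal distribution chance does this in about 1 of 20 sets, but these sets come from the same 4 libraries and many hold zeros, and their own rate was not computed. The 3 Maltreated libraries are too few for the same rule. No explanation was tested.

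Of the peroxiredoxins, the antisense counts of PRDX2 (36 in Control 1), PRDX3 (35 in Control 2) and PRDX6 (27 in Control 1) stood apart, with the other Control libraries at 0 to 2 reads. Among the Control libraries, Control 1 had the lowest share of PRDX5 in the family level per kilobase, 79.0%.

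Among the Control libraries, Control 4 had the highest TXNIP (29.8 CPM), NFE2L2 (20.9 CPM) and NOX3 (11.2 CPM), the lowest KEAP1 (1.12 CPM), the highest leukocyte marker sum (748 CPM) and the lowest sperm marker sum (46810 CPM). Among the same 4, Control 3 had the highest TXN (7.86 CPM), TXNDC17 (0.683 CPM), SRXN1 (1.03 CPM) and epididymis marker sum (17.3 CPM), and the lowest GLRX3 (7.18 CPM). Control 2 had the highest Control sum of markers of epithelium and accessory glands, 289 CPM.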

How the results depend on the processing

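Called peroxiredoxin and pathway genes numbered 0 under every alternative run. Over all genes, sense calls were 3 with DESeq2's Wald test (CA11, CHIA and PPP2R2C, all lower in Maltreated) and 1 with age as a covariate (CD63, higher, adjusted p = 0.0172 in edgeR), and antisense calls 16 with DESeq2 and 24 with no filter. These genes were chosen after their values were seen. The log2 fold change of PRDX4 was -0.69 with age. That of PRDX6 ran from -1.56 to 1.17 with 1 library left out and was -0.44 without Control 4 and Maltreated 3 and 2.86 with age. TXNRD3 was 0.04 with the replicate block and 0.15 with age, and ran from -0.90 to 0.07 with 1 library left out. TXNIP was 0.71 with limma-voom, 1.73 with the block and 2.48 with age. PRDX5 antisense ran from -0.08 to 0.65 with 1 library left out, in the fits that tested it. Without Control 4, the Control library with most of these reads, it did not pass the filter. It was 2.22 without Control 4 and Maltreated 3 together and 1.64 with limma-voom. PRDX1, PRDX2 and PRDX5 sense values kept their sign in all settings that gave one (1.08 to 4.89, 0.53 to 6.54 and -1.29 to -0.26). The cause of these shifts was not tested.

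Same-numbered libraries did not deviate together (r = 0.075, 0.01 and -0.019), so the block, in which Control 4 has no partner, is an alternative only, here and above. With the replicate block 0 sense genes were called, with PRDX1 at 4.37 and PRDX5 at -0.39. PRDX1 and PRDX2 failed the filter with 1 exon per gene or with counts above the lower flank. The median antisense log2 fold change of all genes was -0.13, and it was -0.24 with DESeq2-type size factors, -0.03 with total counts and 0.48 with limma-voom. Counts under 10 reads limit every member but PRDX5 in at least 2 libraries.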
